A study of Mus musculus with 2 samples.

Results

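The perilipins and the CIDE proteins sit on the surface of lipid droplets, the organelles in which cells store triglyceride and sterol esters. All 7 listed genes of these families, Plin1, Plin2, Plin3, Plin4, Plin5, Cidea and Cidec, were found among the 31053 genes measured by single-nucleus RNA sequencing (snRNA-seq) of inguinal white adipose tissue (iWAT, the fat under the skin of the groin). The genes were listed by name and not by their values. Each was described from its unique molecular identifiers (UMIs, 1 per captured RNA molecule) summed over the nuclei of a cell class in each library, and from the share of nuclei that held a UMI at equal depth.

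The study asked how loss of Lexis, a long noncoding RNA, bears on the cells of iWAT. There was 1 library of the genotype Lexis WT and 1 of the genotype Lexis KO. Each came from the pooled iWAT of 3 male C57BL/6 mice fed a Western diet for 4 weeks. The methods state that the lymph node was left out. Lexis-AdKO mice carry Lexis fl/fl alleles and an adiponectin-cre transgene, which is active in adipocytes. Lexis-AdWT mice are Lexis fl/fl littermates without cre, so both groups share the floxed alleles. The sources used here give no age for these animals in particular, only general ranges for the study's mice. File names and sample labels disagree on the genotype of 2 of 2 libraries. Lexis was not analysed here, so the deleted gene could not settle which is right. The samples are called the WT-labelled and the KO-labelled library after their labels, and directions are only as good as those labels. With 1 library per genotype there was no replicate and no test. Intervals are at the 95% level, cover counting error alone and are exact except for differences of shares, whose limits are built from the exact limits of each share. Genotype, mice pooled and preparation cannot be told apart.

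In a fat cell, triglyceride is packed into droplets whose coat decides how readily lipases reach it. Plin1 coats the large droplet of the adipocyte, holds the lipase co-activator Abhd5 at rest and releases it on adrenergic stimulation. Plin2 coats droplets in most cell types, including lipid-laden macrophages, and Plin3 moves from the cytosol to nascent droplets. Plin4 is found on small new droplets of adipocytes and in muscle, and Plin5 ties droplets to mitochondria in oxidative tissues. Cidec (also called FSP27) drives the transfer of lipid from small droplets to large ones and is needed for the single large droplet of the white adipocyte. Cidea does related work in brown and beige adipocytes and is used as a marker of these cells.

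In RefSeq on GRCm38.p6, the assembly also called mm10, Plin1 lies at chr7:79721164-79732904, Plin2 at chr4:86626910-86670217 and Cidec at chr6:113424634-113435760. Plin4 (chr17:56100587-56109948) and Plin5 (chr17:56111597-56117606) are neighbours on the same strand with 1648 bases between them, and Plin3 (chr17:56278962-56290511) lies on the same chromosome. Promoter windows from 250 bases before to 50 bases after an annotated start matched 6 of the 7 genes. The windows of 4 genes are shown, because these genes carried the main patterns below. Plin2 had its highest level per UMI of the class in myeloid-like nuclei. The neighbours Plin4 and Plin5 were lower in the KO-labelled library, and Cidec was higher there. The windows are credited to RefSeq and written 5′ to 3′ on the gene's strand, which is the minus strand for each. Capitals mark exact matches on either strand to AGGTCA (a nuclear receptor half-site), CACGTG (an E-box), CCAAT (the CCAAT box), GGGCGG (a GC box) or TATAA.
Plin2 (chr4:86670010-86670309): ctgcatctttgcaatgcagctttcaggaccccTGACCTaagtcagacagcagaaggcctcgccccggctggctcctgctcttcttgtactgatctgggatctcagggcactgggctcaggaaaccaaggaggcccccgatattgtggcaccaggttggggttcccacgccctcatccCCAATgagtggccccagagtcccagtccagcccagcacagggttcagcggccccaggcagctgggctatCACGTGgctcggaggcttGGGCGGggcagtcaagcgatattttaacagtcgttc
Plin4 (chr17:56109733-56110032): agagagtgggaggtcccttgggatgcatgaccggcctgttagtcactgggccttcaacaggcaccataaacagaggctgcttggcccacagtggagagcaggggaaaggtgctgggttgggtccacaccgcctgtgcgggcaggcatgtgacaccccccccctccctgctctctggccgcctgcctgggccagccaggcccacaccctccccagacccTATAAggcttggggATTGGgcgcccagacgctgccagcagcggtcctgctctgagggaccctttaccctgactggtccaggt
Plin5 (chr17:56117499-56117798): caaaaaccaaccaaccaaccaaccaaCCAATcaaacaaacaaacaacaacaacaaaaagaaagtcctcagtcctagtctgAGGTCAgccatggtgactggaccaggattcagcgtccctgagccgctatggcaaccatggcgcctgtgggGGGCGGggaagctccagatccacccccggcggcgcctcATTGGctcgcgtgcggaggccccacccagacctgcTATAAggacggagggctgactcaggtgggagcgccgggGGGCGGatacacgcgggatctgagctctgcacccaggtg
Cidec (chr6:113435711-113436010): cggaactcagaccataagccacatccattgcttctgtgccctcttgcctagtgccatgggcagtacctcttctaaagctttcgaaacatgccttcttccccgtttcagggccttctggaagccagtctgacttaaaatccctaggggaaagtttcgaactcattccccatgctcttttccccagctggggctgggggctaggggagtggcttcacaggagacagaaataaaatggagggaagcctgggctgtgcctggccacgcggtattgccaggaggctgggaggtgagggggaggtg

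Counted from the annotated start as position 0, TATAA began at position -32 in Plin4 and at position -27 in Plin5. A second annotated Plin5 window, not shown, held no TATAA. This motif was found in 24.9% of the 32851 windows of this length. The Plin2 window held CACGTG at position -4 (7.15% of windows), GGGCGG at position 14 (35.7% of windows), and AGGTCA (16.3% of windows) and CCAAT (37.4% of windows) further upstream. Of these 5 motifs the Cidec window held none, and neither did a second annotated Cidec window or the Plin1 window. No motifs overlapped in the windows shown. These matches describe letters and not bound sites.

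The library labelled WT held 9376351 UMIs and the KO-labelled library 19655049. After filtering, 3503 and 2845 nuclei were kept, with medians of 1195 and 3876 UMIs. Of the 5000 barcodes in each library 12 were shared, and 10 of these were kept. Lymphocyte-like nuclei made up 60.4% of the WT-labelled library and 2.78% of the KO-labelled library. An unnamed cluster led by genes such as Ccl19 and Ccl21a held 147 nuclei of the WT-labelled library and 0 of the KO-labelled library. Whether lymph node remained in a sample was not tested. Levels are given as CPM, counts per 1000000 UMIs of the class. The libraries were made from the 3′ ends of transcripts and counts were not divided by length, so levels are compared between classes and libraries and not between genes.

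Adipocyte-like nuclei were defined without the 7 genes, from markers such as Adipoq, Lipe, Acsl1 and Adrb3. They numbered 408 in the WT-labelled library, all in cluster 4, and 888 in the KO-labelled library, of which 883 were in cluster 1 and 5 in cluster 4. All 12 adipocyte markers were detected in both, each above the lymphocyte-like nuclei of its library except Retn in the KO-labelled library (376 against 410 CPM). Adipoq was only a little above them there (335 against 270 CPM). By the naming rule cluster 1 passed 11 of the markers and cluster 4 passed 7. Pparg was 411 and 1849 CPM and Ghr 1489 and 11426 CPM in the WT-labelled and the KO-labelled library. Acsl1 (5493 and 3618 CPM) and Adrb3 (972 and 583 CPM) went the other way. The median depths of the adipocyte-like nuclei were 3652 and 7836 UMIs. Clusters 1 and 4 separate the libraries almost fully, so each comparison below sets cluster 1 of one library against cluster 4 of the other.

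Across the cell classes the 7 genes fell into 3 patterns. Plin1, Plin4 and Cidec had their highest level in adipocyte-like nuclei in both libraries. Plin2 was highest in myeloid-like nuclei in CPM, though not in UMIs per nucleus. Plin3, Plin5 and Cidea were sparse, and of these Plin5 and Cidea had most of their UMIs in adipocyte-like nuclei.

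**Figure D1:**
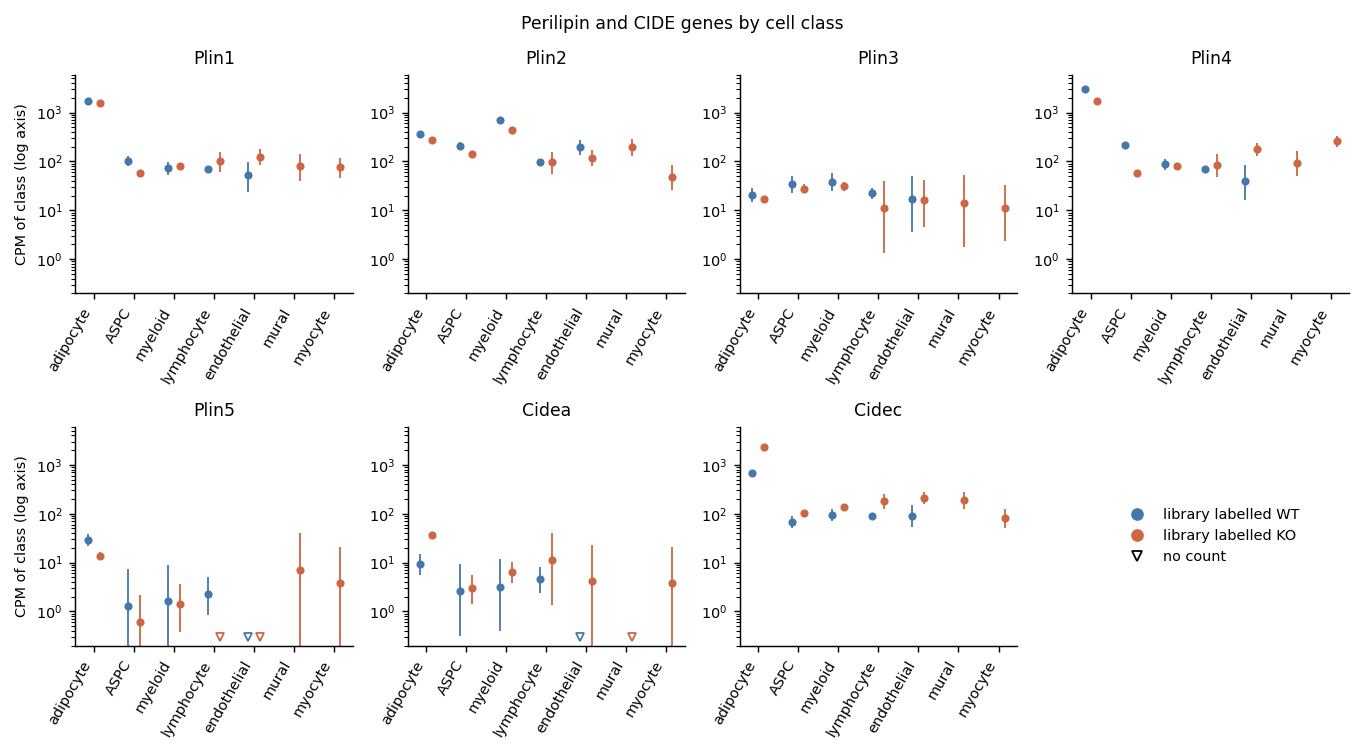
Level of each gene by cell class, in CPM on a log axis, with exact Poisson 95% intervals; blue points are the WT-labelled library, red points the KO-labelled library, and open triangles mark classes with no count (classes of under 20 nuclei in a library are left out). Plin1, Plin4 and Cidec stand highest in adipocyte-like nuclei, Plin2 in myeloid-like nuclei, and in adipocyte-like nuclei Cidec stands at 674 and 2330 CPM.

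Plin1 reached 1735 CPM (1676 to 1795) in adipocyte-like nuclei of the WT-labelled library and 1563 CPM (1537 to 1590.1) in those of the KO-labelled library. In the other classes it lay between 51.7 and 103 CPM in the WT-labelled library and between 59.0 and 123 CPM in the KO-labelled library, and neighbouring classes in that order did not differ beyond counting error. Lymphocytes are not known to use Plin1, and their 69.3 and 101 CPM are given as the reference level. Barcodes with under 500 genes, which were left out, had 219 and 344 CPM. Against lymphocyte-like nuclei Plin1 was 25.03-fold higher (21.5 to 29.3) in adipocyte-like nuclei of the WT-labelled library and 15.5-fold higher (9.78 to 26.1) in those of the KO-labelled library. Adipocyte-like nuclei were 11.6% and 31.2% of the kept nuclei and held 90.5% and 96.3% of all Plin1 UMIs.

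Plin4 reached 3026 CPM (2948 to 3105) in adipocyte-like nuclei of the WT-labelled library and 1742 CPM (1714 to 1771) in those of the KO-labelled library. These nuclei held 93.0% and 96.4% of its UMIs. Lymphocyte-like nuclei stood at 71.2 and 84.2 CPM. The 52 myocyte-like nuclei, all in the KO-labelled library, had 257 CPM (200 to 326), or 3.40 Plin4 UMIs for each Plin1 UMI (2.04 to 5.91). This was above the 1.11 (1.09 to 1.14) of adipocyte-like nuclei in that library, with intervals that do not overlap.

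In precursor-like nuclei (ASPC, adipogenic stem and precursor cells, fibroblasts included) Plin4 was 215 CPM in the WT-labelled library and 59.0 CPM in the KO-labelled library. The 162 UMIs of the WT-labelled library were unevenly spread, with 117 of them (72.2%) in 10 of 300 nuclei and 43 in a single nucleus. Plin1 had the same shape there, with 70 of 78 UMIs in 10 nuclei. In the KO-labelled library, 10 of 784 nuclei held 27 of 195 Plin4 UMIs. Of the ASPC-like nuclei 296 of 300 in the WT-labelled library came from cluster 7 and 4 from cluster 5, and those of the KO-labelled library came mainly from clusters 5 and 6.

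Plin5 gave 55 UMIs in adipocyte-like nuclei of the WT-labelled library (29.0 CPM, 21.8 to 37.7) and 117 in those of the KO-labelled library (13.7 CPM, 11.4 to 16.4). All other kept nuclei together gave 10 and 8 UMIs, so that 84.6% and 93.6% of the Plin5 UMIs were in adipocyte-like nuclei. Lymphocyte-like nuclei gave 6 UMIs in 2115 nuclei of the WT-labelled library and 0 in 79 nuclei of the KO-labelled library, and at equal depth 0 of 68 nuclei, which allows a share of up to 4.41%. In the WT-labelled library Plin5 was 12.5-fold higher (5.41 to 35.7) in adipocyte-like than in lymphocyte-like nuclei. Low as its counts were, most Plin5 UMIs were in this class, as for its neighbour Plin4.

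Plin2 did not follow the adipocyte pattern in CPM. Among classes with at least 20 nuclei its highest level was in myeloid-like nuclei, at 705 CPM in the WT-labelled library and 430 CPM in the KO-labelled library. Adipocyte-like nuclei had 365 CPM (338 to 393) and 274 CPM (263 to 286), which is 0.518 (0.459 to 0.585) and 0.638 (0.595 to 0.684) of the myeloid level. Per nucleus the order was the opposite, with 1.70 and 2.64 Plin2 UMIs in the deeper adipocyte-like nuclei against 1.34 and 1.40 in myeloid-like nuclei. ASPC-like nuclei had 209 and 139 CPM and lymphocyte-like nuclei 99.7 and 95.4 CPM. The left-out barcodes with under 500 genes had 112 and 262 CPM of Plin2. Of all Plin2 UMIs 41.8% and 57.1% were in adipocyte-like nuclei, and 26.4% and 29.6% in myeloid-like nuclei. Adipocyte-like nuclei held 1898023 of the 6579927 UMIs of all kept nuclei in the WT-labelled library. In the KO-labelled library they held 8533130 of 15512473. A gene's share by class thus also reflects the UMIs that the class holds.

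Within the myeloid class Plin2 differed between clusters and, in cluster 9, between libraries. In the KO-labelled library, cluster 9, whose leading genes include Dcstamp and St18, had 691 CPM (640.5 to 745), and cluster 3, led by genes such as Vsig4 and Cd163, had 277 CPM (254 to 303). The 20 nuclei of cluster 9 in the WT-labelled library gave 11 UMIs, or 269 CPM (134 to 482), below those of the other library with intervals that do not overlap, and opposite in direction to the class as a whole. Vsig4 and Cd163 mark tissue-resident macrophages, and Dcstamp is known for its part in the fusion of myeloid cells. Cluster 8 had 736 CPM (667 to 809) and was led by genes such as Timd4 and Ms4a7. Cd163 was a marker of cluster 8 as well as of cluster 3, so it did not set clusters apart by their Plin2 level. Cluster 8 held 306 of the 326 myeloid-like nuclei of the WT-labelled library. The ratio of the whole class between libraries, 0.610 (0.546 to 0.682) as labelled KO over labelled WT, therefore compares different clusters. An interval below 1 was found for 26.2% of the 8670 genes with at least 50 counts in this class.

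ASPC-like clusters differed in the same gene. In the KO-labelled library Plin2 was 181 CPM (163 to 200) in cluster 5, whose markers include Col15a1, and 70.0 CPM (56.0 to 86.4) in cluster 6, whose markers include Pi16 and Dpp4. Pi16 and Dpp4 mark early precursors, and Col15a1 marks a reticular, more committed population. Cluster 6 lay within counting error of the 95.4 CPM (55.6 to 153) of lymphocyte-like nuclei in that library. Cluster 7 of the WT-labelled library, which carries both kinds of marker, had 209 CPM (177 to 246).

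**Figure D2:**
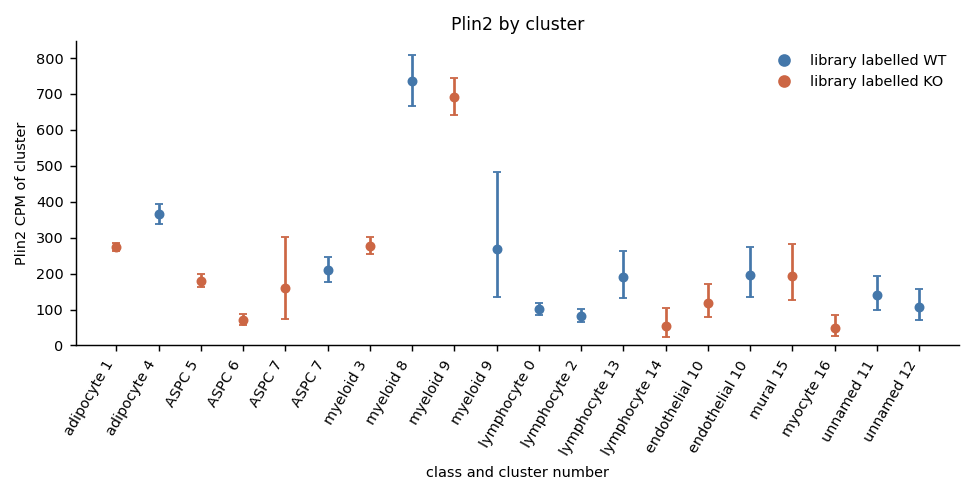
Plin2 level by cluster in CPM, with exact Poisson 95% intervals; blue points are the WT-labelled library and red points the KO-labelled library (clusters with at least 20 nuclei in a library). Myeloid-like cluster 8 of the WT-labelled library stands at 736 CPM and cluster 9 of the KO-labelled library at 691 CPM, above both adipocyte-like clusters, while cluster 3 (277 CPM) and the 20 nuclei of cluster 9 in the WT-labelled library (269 CPM) do not.

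Plin3, the perilipin of the cytosol and of nascent droplets, was not highest in adipocyte-like nuclei in CPM. It was 38.7 and 31.2 CPM in myeloid-like nuclei and 34.4 and 27.8 CPM in ASPC-like nuclei. Adipocyte-like nuclei had 20.5 CPM (14.6 to 28.1) and 17.0 CPM (14.3 to 19.99), and lymphocyte-like nuclei 22.3 and 11.2 CPM. Per nucleus the deeper adipocyte-like nuclei had the most, at 0.0956 and 0.163 UMIs. ASPC-like nuclei had 0.0867 and 0.117, myeloid-like nuclei 0.0736 and 0.101, and lymphocyte-like nuclei 0.0274 and 0.0253. The CPM ratio of adipocyte-like to lymphocyte-like nuclei was 0.920 (0.597 to 1.40) in the WT-labelled library and 1.51 (0.411 to 12.6) in the KO-labelled library. A CPM above that of lymphocyte-like nuclei was thus not detectable at this depth. Plin1, Plin2, Plin4, Plin5 and Cidec had such a ratio with its interval above 1 in the WT-labelled library, which are 5 of the 6 genes with at least 50 counts over both classes, against 20.4% of 9491 genes. For the KO-labelled library it was 4 of 7, against 15% of 10801 genes, since the Plin5 interval, with 0 UMIs in 79 lymphocyte-like nuclei, began at 0.652. These are known fat cell genes, so the counts are a description.

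Cidec reached 674 CPM (638 to 712) in adipocyte-like nuclei of the WT-labelled library and 2330 CPM (2297 to 2362) in those of the KO-labelled library. Lymphocyte-like nuclei had 90.5 and 180 CPM. Cidec was 7.45-fold (6.48 to 8.60) and 12.97-fold (9.18 to 19.0) higher in adipocyte-like than in lymphocyte-like nuclei. These nuclei held 76.3% of its UMIs in the WT-labelled library and 95.8% in the KO-labelled library.

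Cidea gave 18 UMIs in adipocyte-like nuclei of the WT-labelled library (9.48 CPM, 5.62 to 15.0) and 319 in those of the KO-labelled library (37.4 CPM, 33.4 to 41.7). In the WT-labelled library this was 2.05-fold (0.935 to 4.67) the level of lymphocyte-like nuclei, an interval that holds 1. In the KO-labelled library it was 3.33-fold (0.914 to 27.6) the level of the few lymphocyte-like nuclei, 12.4-fold (6.63 to 26.0) that of ASPC-like nuclei and 5.86-fold (3.65 to 10.0) that of myeloid-like nuclei. Adipocyte-like nuclei held 52.9% and 90.6% of the Cidea UMIs. The left-out barcodes with under 500 genes had 9.14 CPM (2.49 to 23.4) and 24.2 CPM (16.8 to 33.6) of Cidea, nearer to the adipocyte level than the other classes were.

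Between the libraries, the 2 CIDE genes were higher and 3 of the 5 perilipins were lower in adipocyte-like nuclei of the KO-labelled library in the point values under each scaling and alternative run. The intervals held 1 for Plin2 with TMM scaling (0.924, 0.848 to 1.01) and for Plin5 in nuclei with no lymphocyte marker (0.634, 0.326 to 1.38). Cidec was 3.45-fold higher (3.26 to 3.66) and Cidea 3.94-fold higher (2.45 to 6.74). Plin4 was lower, at a ratio of 0.576 (0.559 to 0.594), as was Plin5, at 0.473 (0.341 to 0.664), and Plin2, at 0.751 (0.690 to 0.819). Plin1, at 0.901 (0.867 to 0.936), and Plin3, at 0.827 (0.577 to 1.21), were nearer to 1, and the side on which they lay depended on the scaling.

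These ratios stand in a comparison in which most genes differed. Of 11290 genes with at least 50 counts, 25.7% were at least 2-fold higher in the KO-labelled library and 17.4% at most 0.5-fold, with an interval outside 1. By the same rule 2 of the 7 genes were higher (Cidea and Cidec) and 1 was lower (Plin5). The Plin5 ratio no longer reached 2-fold with TMM scaling (0.582), relative to intronic length (0.709), in nuclei of 3000 to 8000 UMIs (0.533), in nuclei with no lymphocyte marker (0.634) or without the 3 nuclei with most of its UMIs (0.532), and Plin4 reached it (0.484) with totals that leave out mitochondrial genes and Malat1. An interval outside 1, whatever the size, was found for 71.1% of all genes and for 6 of the 7. Cidea stood at the 86.9th percentile of all ratios and Cidec at the 85.0th, and Plin5 at the 14.9th and Plin4 at the 24.2nd. The median log2 ratio was -0.27 over the 7 genes and -0.04 over all genes tested.

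Scaling bears on these values. TMM factors shift every log2 ratio by 0.30, and leaving mitochondrial genes and Malat1 out of the totals shifts it by -0.25. Under them the counts of genes past the 2-fold rule were 3518 higher and 1060 lower, and 2396 higher and 2914 lower, against 2897 and 1959 with total counts. Malat1, a nuclear RNA, took 32.4% of adipocyte UMIs in the WT-labelled library and 19.9% in the KO-labelled library. Ratios also followed intronic length, with a median log2 ratio of -0.95 for genes with introns of under 1000 bases in all and 1.40 for genes with 100000 or more. Plin1, Plin3, Plin4, Plin5 and Cidec fall in 1 bin of intronic length (3000 to 10000 bases, median log2 ratio -0.58, 1868 genes), and the bins on either side had medians of -0.90 and -0.19. Within that bin Plin4 and Plin5, the genes with the lower ratios, lie near the short end with 3457 and 3909 intronic bases, and Plin1, Plin3 and Cidec near the long end with 9697, 9391 and 9271. The part of length in the differences between these genes was not tested. Relative to that bin Cidec was 5.18-fold higher, Plin1 1.35-fold higher and Plin3 1.24-fold higher, and Plin4 and Plin5 were at ratios of 0.863 and 0.709.

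Over the main value and its 12 alternatives the Cidec ratio ran from 2.90 to 5.18, the Cidea ratio from 3.31 to 5.49, the Plin2 ratio from 0.631 to 0.924, the Plin4 ratio from 0.484 to 0.863 and the Plin5 ratio from 0.397 to 0.709. None of these 5 ranges crosses 1. The Plin1 ratio ran from 0.757 to 1.35 and the Plin3 ratio from 0.695 to 1.38.

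**Figure D3:**
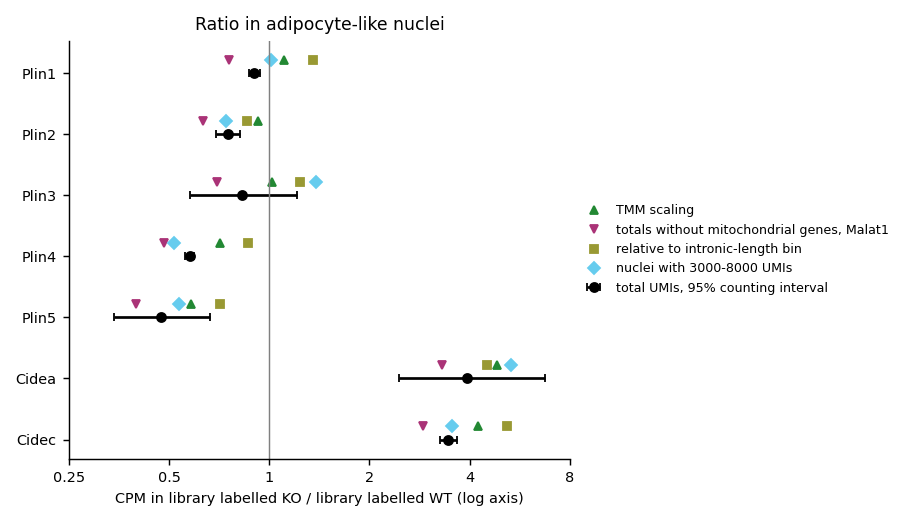
Ratio of CPM in adipocyte-like nuclei, KO-labelled over WT-labelled library, on a log axis; black points are scaled by total UMIs with exact 95% counting intervals, and coloured symbols give the same ratio under other scalings, relative to genes of like intronic length, or in nuclei of 3000 to 8000 UMIs. Cidea and Cidec lie right of 1 and Plin2, Plin4 and Plin5 left of 1 under every symbol shown, and Plin1 and Plin3 lie on both sides.

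Markers of other cells moved with this comparison. In adipocyte-like nuclei the summed level of the 18 lymphocyte markers was 801 CPM in the WT-labelled library (0 of them at 0) and 151 CPM in the KO-labelled library (1 at 0), and that of the 12 ASPC markers was 1764 and 1142 CPM (0 at 0 in either). The 11 myocyte markers were at 25.8 and 88.1 CPM, with 7 and 1 of them at 0, and the 6 Schwann cell markers at 208 and 287 CPM, with 2 and 0 at 0. Myeloid markers (12) were at 306 and 113 CPM, and the 12 endothelial markers at 118 and 66.2 CPM. Their part in the results was not tested. In the 92 and 477 adipocyte-like nuclei with no UMI of a lymphocyte marker the Cidec ratio was 3.48, the Cidea ratio 5.49, the Plin4 ratio 0.644 and the Plin5 ratio 0.634. These nuclei were shallower than the class, with medians of 2778 and 6996 UMIs, and the gap in depth between the libraries was wider in proportion. In adipocyte-like nuclei of like depth, with 3000 to 8000 UMIs (201 and 382 nuclei), the Cidec ratio was 3.54, the Cidea ratio 5.33, the Plin4 ratio 0.516 and the Plin1 ratio 1.01. Both subsets were chosen after the data had been seen.

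The share of adipocyte-like nuclei with a UMI was compared after every nucleus was thinned to 1000 UMIs, which left 399 and 883 nuclei. Cidec was detected in 45.1% (40.2 to 50.1) of nuclei in the WT-labelled library and in 82.3% (79.7 to 84.8) in the KO-labelled library, a difference of 37.2 percentage points (31.5 to 42.8). Without thinning the shares were 82.1% and 98.8%. Lymphocyte-like nuclei at the same depth stood at 7.08% and 17.6%.

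Plin4 was detected in 85.7% (81.9 to 89.0) and 78.0% (75.2 to 80.7) of these nuclei, a difference of -7.68 percentage points (-12.1 to -3.01). At 2000 UMIs per nucleus the Plin4 difference was -2.36, with an interval that holds 0 (-5.38 to 1.19). Plin1 was detected in 81.0% and 78.1%, with a difference whose interval holds 0 (-7.52 to 2.18 percentage points). With adipocytes defined per nucleus by markers the Plin1 difference was -12.8, with an interval below 0 (-17.6 to -7.68). That rule took 413 and 1101 nuclei, of which 383 and 885 were in the adipocyte-like clusters. The value thus also covers nuclei outside those clusters, more of them in the KO-labelled library. Plin2 was detected in 27.1% and 22.8%, also with an interval that holds 0 in the main setting (-9.69 to 0.889). The Plin2 interval lay below 0 with at least 1000 genes per nucleus (-12.6 to -0.694) and without doublet removal (-11.1 to -0.791). The unthinned Plin4 shares, 95.8% and 98.6%, and the unthinned Plin2 shares, 59.1% and 73.9%, had the opposite order, beside the higher depth of the KO-labelled library.

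The sparse genes gave few positive nuclei. Cidea was found in 3 of 399 and 29 of 883 thinned nuclei (0.752% and 3.28%), Plin5 in 18 and 16 (4.51% and 1.81%) and Plin3 in 15 and 13 (3.76% and 1.47%). A single draw of UMIs is noisy for such genes. Averaged over all draws, the expected shares were 1.00% and 3.98% for Cidea, 2.77% and 1.62% for Plin5, and 2.57% and 1.89% for Plin3. In this single draw Cidea in the WT-labelled library lay near the share of lymphocyte-like nuclei (0.735%), the reference level. Its average over draws was 1.00%, and the unthinned shares were 3.68% in adipocyte-like and 0.567% in the shallower lymphocyte-like nuclei. The CPM ratio of these classes had an interval that holds 1, so a level above background was not shown for it.

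**Figure D4:**
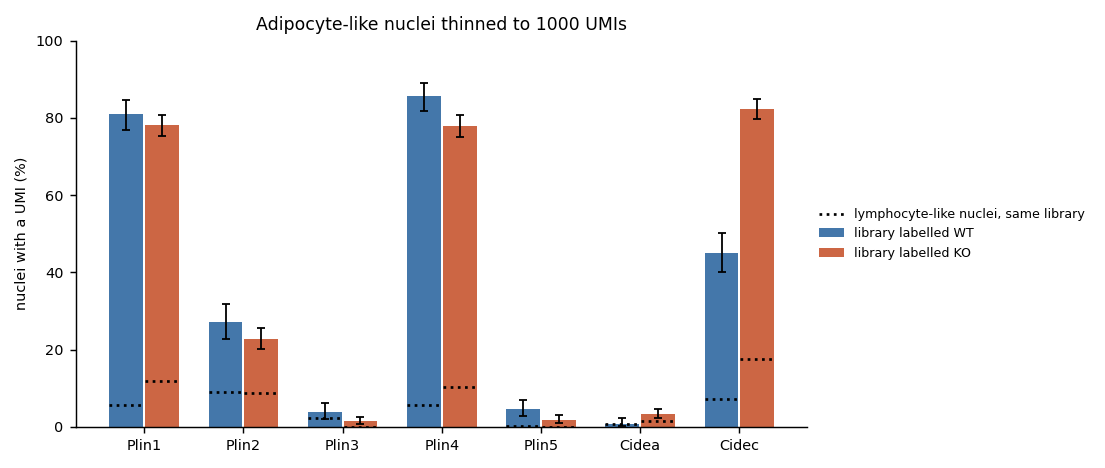
Share of adipocyte-like nuclei with a UMI of each gene after thinning to 1000 UMIs per nucleus, in percent; bars are the WT-labelled library (blue, 399 nuclei) and the KO-labelled library (red, 883 nuclei) with exact 95% intervals, and dotted lines give lymphocyte-like nuclei of the same library. Cidec stands at 45.1% and 82.3%, and Plin1 at 81.0% and 78.1%.

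A ratio of 2 genes within the same nuclei does not depend on the scaling of the libraries. In adipocyte-like nuclei there were 0.389 Cidec UMIs for each Plin1 UMI (0.364 to 0.415) in the WT-labelled library and 1.49 (1.46 to 1.52) in the KO-labelled library, a 3.83-fold difference (3.58 to 4.11). Plin4 per Plin1 was 1.74 (1.67 to 1.82) and 1.11 (1.09 to 1.14), a ratio of 0.639 (0.608 to 0.671). Relative to Plin1 the ratio was 4.37 (2.72 to 7.49) for Cidea, 0.834 (0.759 to 0.916) for Plin2, 0.525 (0.377 to 0.739) for Plin5 and 0.918 (0.639 to 1.35) for Plin3. The order of the genes was thus the same as with CPM, since each value is the CPM ratio divided by that of Plin1.

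In ASPC-like nuclei there were 0.654 Cidec UMIs per Plin1 UMI in the WT-labelled library and 1.74 in the KO-labelled library, a 2.66-fold difference (1.76 to 4.03) whose interval overlaps that of the adipocyte-like nuclei. It rests on few nuclei of the WT-labelled library, where 10 of 300 held 70 of the 78 Plin1 UMIs and the 10 richest in Cidec held 29 of 51, and on different clusters in each library, so it is not read as a difference between like nuclei. The intervals of lymphocyte-like and myeloid-like nuclei each overlapped between the libraries. In lymphocyte-like nuclei there were 1.31 Cidec UMIs per Plin1 UMI (1.07 to 1.59) in the WT-labelled library and 1.78 (0.968 to 3.36) in the KO-labelled library, and in myeloid-like nuclei 1.31 (0.875 to 1.98) and 1.66 (1.40 to 1.96). Pooled over all nuclei outside the adipocyte class the values were 1.15 (0.994 to 1.33) and 1.70 (1.52 to 1.90), a 1.48-fold difference (1.23 to 1.78), against 3.83-fold within the class. Within the KO-labelled library the adipocyte-like nuclei had 1.49 (1.46 to 1.52), below the 1.70 of its other nuclei, with intervals that only just do not overlap. Lymphocyte-like nuclei of the WT-labelled library had more Cidec per Plin1 than the adipocyte-like nuclei of the same library, with intervals that do not overlap. Plin4 per Plin1 was likewise 1.03 (0.833 to 1.27) in lymphocyte-like nuclei of the WT-labelled library, below the 1.74 of its adipocyte-like nuclei.

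**Figure D5:**
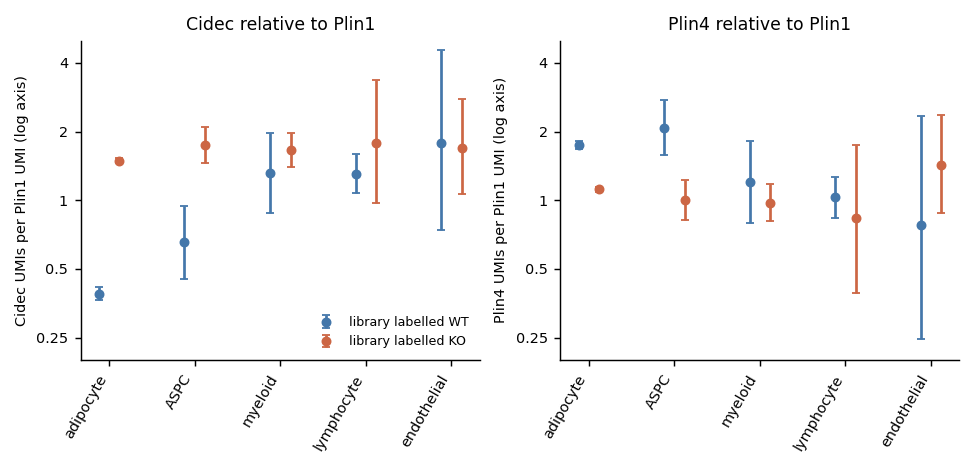
UMIs of Cidec (left) and Plin4 (right) for each Plin1 UMI by cell class, on a log axis, with exact 95% intervals; blue points are the WT-labelled library and red points the KO-labelled library. In the WT-labelled library the Cidec value is 0.389 in adipocyte-like and 1.31 in lymphocyte-like nuclei, and in the KO-labelled library it is 1.49 and 1.78.

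Nuclei also differed among themselves. At 1000 UMIs per nucleus the variance of Plin4 was 2.36 times its mean in the WT-labelled library and 1.36 times in the KO-labelled library, where 1 is the value of counting alone. Plin1 had 1.31 and 1.30 and Plin2 1.36 and 1.29. Cidec had 1.15 and 1.72, so its spread over nuclei was larger in the library where its level was higher. Plin5 had 1.40 and 1.30. This measure rises with the mean, and Plin4 had the highest mean of the 7 genes in the WT-labelled library (2.98 UMIs), so it does not rank genes by their relative spread. Its unthinned nuclei there had a lower quartile of 4, a median of 8 and an upper quartile of 20 UMIs.

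Cidea UMIs were unevenly spread in the KO-labelled library, with a variance 2.15 times the mean of 0.0476 and 52 of 319 UMIs (16.3%) in 3 nuclei. The nuclei with Cidea had a median of 7642 UMIs and those without it 7862. The corresponding medians of the WT-labelled library were 4822 and 3636, so there the nuclei with Cidea were deeper. Leaving out in each library the 3 nuclei with most Cidea UMIs gave a ratio of 4.92 (2.77 to 9.65). In the WT-labelled library 6 of 18 UMIs were in 3 nuclei.

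Ucp1, the uncoupling protein of thermogenic fat, was counted in the same nuclei because Cidea marks beige adipocytes. Of 888 adipocyte-like nuclei in the KO-labelled library 124 had a Cidea UMI and 9 had a Ucp1 UMI, and 7 had both. Those with Cidea held 69 of the 71 Ucp1 UMIs. Of 408 in the WT-labelled library 15 had Cidea, 13 had Ucp1 and 4 had both, and 24 of 40 Ucp1 UMIs were in nuclei with Cidea. These counts are unthinned, and a UMI need not mean expression. At 1000 UMIs per nucleus Ucp1 was found in 2.51% and 0.453% of adipocyte-like nuclei, against 0.551% of lymphocyte-like nuclei in the WT-labelled library and 0 of 68 in the KO-labelled library, which allows up to 4.41%. Ucp1 was 21.1 CPM in adipocyte-like nuclei of the WT-labelled library and 8.32 CPM in those of the KO-labelled library, against 7.70 and 0 CPM in lymphocyte-like nuclei. The other genes of the thermogenic marker list did not share 1 direction. Prdm16, a transcriptional regulator of brown and beige fat, was 29.0 and 137 CPM, Ppargc1a 39.5 and 41.3 CPM and Cox7a1 2.11 and 2.70 CPM. Cox8b was 17.4 and 13.5 CPM, Dio2 5.27 and 1.88 CPM, and Elovl3 6.32 and 0 CPM. None of these levels was set against intronic length, which the ratios between libraries followed. Lymphocyte-like nuclei had 12.7 and 28.1 CPM of Cox8b and 3.08 and 0 CPM of Cox7a1. In CPM, Cox8b in the KO-labelled library and Cox7a1 in the WT-labelled library were not above that level. A count of 0 in lymphocyte-like nuclei of the KO-labelled library allows up to 16.8 CPM. Ucp1, Cox7a1, Dio2 and Elovl3 were thus not shown to be above it there. These comparisons are of CPM and not of UMIs per nucleus.

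Most adipocyte-like nuclei held UMIs of several of the 7 genes. At 1000 UMIs the most common number was 2 in the WT-labelled library (38.8% of nuclei) and 3 in the KO-labelled library (46.9%), and 0.752% and 0.793% had none. Pairs of abundant genes were detected together about as often as the product of their shares. Plin1 and Cidec were found together in 149 of 399 nuclei against a product of 146 in the WT-labelled library, and in 575 of 883 against 568 in the KO-labelled library. Plin2 and Plin5 were found together in 11 nuclei of the WT-labelled library against a product of 4.87, and in 3 against 3.64 in the KO-labelled library. Nuclei share a library, so these are descriptions.

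For each gene the 3 genes with the most similar profile were taken over 12 class-by-library profiles, by Pearson r of log2(CPM + 1) among 7562 genes. The profiles come from 2 libraries and the adipocyte profiles weigh heavily. Cidec was most like Ppp2r1b (r = 0.98), Gm30270 (0.98) and Lep (0.97), the last encoding the hormone leptin. Plin1 was most like Tmem45b (0.98), Syap1 (0.97) and Insig1 (0.97). Plin4 was most like Pck1 (0.96), Acsl1 (0.95) and Plin1 (0.95). Pck1 serves to make the glycerol backbone of triglyceride, and Acsl1 activates fatty acids. Lep and Acsl1 were also among the markers that defined adipocyte-like nuclei. Plin2 was most like Adap2 (0.90), Atp6v1b2 (0.90) and Snx10 (0.89), of which Atp6v1b2 is a subunit of the proton pump that acidifies lysosomes. Cidea was most like Nrg4 (0.92), a secreted factor of brown fat, Mpc2 (0.91), a subunit of the mitochondrial pyruvate carrier, and Pnpla3 (0.88). Plin5, with Calcoco1 (0.93), Srebf1 (0.93) and Fgfrl1 (0.93), and Plin3, with Anpep (0.92), P2rx4 (0.91) and Scpep1 (0.90), rest on 190 and 504 UMIs, and Cidea on 386.

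The other genes of droplet biology were read from a list of 33, of which 30 had at least 50 counts. In adipocyte-like nuclei of the KO-labelled library 6 were at least 2-fold higher (25.7% of all genes were), 4 were at most 0.5-fold (17.4% of all genes were) and 20 were neither. Their median log2 ratio was 0.27, against -0.04 for all genes and -0.27 for the perilipin and CIDE genes. By role, 2 of 9 lipolysis genes were higher and 2 lower, 1 of 7 genes of triglyceride and sterol ester synthesis was higher and 1 lower, 1 of 4 droplet formation genes was higher, and 2 of 10 genes of the droplet surface and contact sites were higher and 1 lower.

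Lipe, hormone-sensitive lipase, was 769 and 1016 CPM, a ratio of 1.32 (1.25 to 1.40). Pnpla2, adipose triglyceride lipase, was 247 and 283 CPM, a ratio of 1.15 (1.04 to 1.27). Relative to genes of like intronic length the log2 ratio of Pnpla2 was 1.10, past 2-fold, and that of Lipe 0.59. Lipe, Pnpla2 and Acsl1 of this list were also among the markers that defined adipocyte-like nuclei, so their levels there are not independent of that definition. The highest ratios were those of Pnpla3, a lipid droplet protein of the same family, at 264 and 2310 CPM (8.75, 8.01 to 9.58), Rab18 at 12.6 and 37.4 CPM (2.96, 1.95 to 4.68), Tmem159 at 9.48 and 26.8 CPM (2.83, 1.75 to 4.86) and Cav1 at 379 and 1063 CPM (2.80, 2.60 to 3.03). Rab18 is a small GTPase of the droplet surface, Tmem159 marks sites of droplet formation and Cav1 builds caveolae. The lowest were those of Soat1, which esterifies cholesterol, at 23.7 and 4.57 CPM (0.193, 0.122 to 0.303), Hilpda, an inhibitor of Pnpla2, at 68.0 and 17.0 CPM (0.25, 0.196 to 0.319), Aup1 at 42.1 and 19.3 CPM (0.459, 0.349 to 0.607) and Lipa, the lysosomal acid lipase, at 34.8 and 16.6 CPM (0.479, 0.355 to 0.651). Of these 8 genes 4 had a lower CPM in adipocyte-like than in lymphocyte-like nuclei of the same library. Lymphocyte-like nuclei had 101 and 112 CPM of Soat1, 96.3 and 28.1 CPM of Aup1, 63.9 and 33.7 CPM of Lipa and 25.03 and 39.3 CPM of Rab18. In UMIs per nucleus, of these 4 only Soat1 was lower in adipocyte-like nuclei (0.110 and 0.0439 against 0.124 and 0.253). Aup1 (0.196 and 0.186 against 0.118 and 0.0633), Lipa (0.162 and 0.160 against 0.0785 and 0.0759) and Rab18 (0.0588 and 0.359 against 0.0307 and 0.0886) were higher. Relative to genes of like intronic length Aup1 was no longer 2-fold lower (log2 ratio -0.23), the other 7 remained past 2-fold in the same direction, and the median of the list was 0.08.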

How the data were processed

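Single-nucleus libraries (10x Genomics 3′ v3.1) were deposited as UMI counts per gene and barcode, 5000 barcodes each, which the authors made with Cell Ranger (6.1.1 per the file headers). The submitters' processing notes name mm10 and Seurat 4. Whether intronic reads were counted and whether free RNA was removed is not given in the sources used here.

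Barcodes with at least 500 genes and at most 5% mitochondrial UMIs were kept. Doublets were scored with Scrublet in scanpy 1.11.5. Its automatic threshold marked 99 nuclei in the KO-labelled library, which were removed, and 2 in the WT-labelled library, where the 4% with the highest scores (146) were removed instead. The merged counts were clustered in Seurat 5.3.0 (R 4.3.3) with 2000 variable genes, the 7 genes left out, 20 components and a resolution of 0.5, without integration. The authors describe clustering of a merged matrix in one place and an integrated analysis in another, so whether their libraries were aligned is unclear. A cluster was named when at least 3 markers of a class passed (at least 5% of nuclei and 2 times the mean of other clusters), with a lead of 3 over the next class. A cluster led by Ccl19 and Ccl21a and 1 other stayed unnamed, the former by a rule added after the data were seen.

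CPM, ratios and shares were computed from the deposited counts, with exact Poisson, conditional binomial and Clopper-Pearson intervals (scipy 1.17.1). A count of 0 allows up to 3 counts. TMM factors came from edgeR 4.0.16. Intronic lengths came from an older annotation, matched by gene ID for 93.7% of genes tested. Named genes were the 7 genes, the 4 highest and 4 lowest droplet genes past the 2-fold ratio, Lipe, Pnpla2, Ucp1, and the 3 most similar genes of each. Values of Malat1, Retn and the other thermogenic markers were added after they had been seen. Members, lists and markers were chosen with earlier results of these data known.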

Additional observations from a re-analysis of the deposited data

Results flagged for a closer look

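The filters left out 1351 barcodes of the WT-labelled library and 2056 of the KO-labelled library, those under 500 genes or over 5% mitochondrial UMIs. They entered no ratio or share given above, and each gene had more UMIs there than the 3 that a count of 0 allows. In the WT-labelled library they held 350 UMIs of Plin1, 489 of Plin2, 57 of Plin3, 514 of Plin4, 10 of Plin5, 8 of Cidea and 292 of Cidec. In the KO-labelled library they held 1060 UMIs of Plin1, 1103 of Plin2, 86 of Plin3, 1072 of Plin4, 16 of Plin5, 84 of Cidea and 1807 of Cidec. Among the barcodes under 500 genes Cidec was 110 CPM in the WT-labelled library and 649 CPM in the KO-labelled library, against 90.5 and 180 CPM in lymphocyte-like nuclei.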

How the results depend on the processing

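Of 84 alternative values of the adipocyte ratios 60 stayed within counting error of the main value, 21 moved and 3 had the opposite direction, all 3 for Plin1. The Plin3 value, whose interval holds 1, also passed to the other side of 1 in 3 settings, with TMM scaling (1.02), relative to intronic length and by depth window. With TMM scaling the ratios were 1.11 for Plin1, 0.924 for Plin2, 0.708 for Plin4 and 4.25 for Cidec. With totals that leave out mitochondrial genes and Malat1 they were 0.757 for Plin1, 0.631 for Plin2, 0.484 for Plin4 and 2.90 for Cidec. Relative to genes of like intronic length they were 1.35 for Plin1, 0.858 for Plin2, 1.24 for Plin3, 0.863 for Plin4, 0.709 for Plin5 and 5.18 for Cidec. With at least 1000 genes per nucleus the Plin4 ratio was 0.542. With adipocytes defined per nucleus by markers it was 0.850 for Plin1, 0.826 for Plin2 and 0.548 for Plin4. In nuclei of 3000 to 8000 UMIs it was 1.01 for Plin1, 1.38 for Plin3 and 0.516 for Plin4, and in nuclei without a lymphocyte marker 0.979 for Plin1, 0.676 for Plin2 and 0.644 for Plin4.

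Of 63 alternative differences in the share of nuclei with a UMI (labelled KO minus labelled WT, in percentage points) 50 stayed within counting error. Without thinning they were 14.8 for Plin2, 5.21 for Plin3, 2.82 for Plin4, 0.219 for Plin5, 10.3 for Cidea and 16.7 for Cidec, of which those of Plin3, Plin4 and Plin5 reversed and that of Plin2, -4.30 with an interval that holds 0 when thinned, also changed sign, as did that of Plin1, from -2.81 to 0.0596, both with intervals that hold 0. The Plin1 difference was 1.42 with at least 1000 genes per nucleus. At 500 UMIs the Plin3 difference was 0.258. At 2000 UMIs it was -2.36 for Plin4, 5.15 for Cidea and 23.2 for Cidec. With the marker definition, which also took nuclei outside the adipocyte-like clusters, it was -12.8 for Plin1, -17.2 for Plin4 and 24.7 for Cidec.

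Genes past the 2-fold ratio in the lower direction numbered 3361 with no filter on counts, 1060 with TMM scaling and 1267 relative to intronic length, against 1959. On the droplet list 2 were lower with TMM scaling and 7 with totals without mitochondrial genes and Malat1, against 4. Apart from the fewer or more genes tested and the shifts of scale, the cause was not tested. The alternatives by depth window, lymphocyte markers and all draws were chosen after seeing the data. No paired analysis was possible because there was 1 library per genotype, and the result comes from no test. Depth limits Plin3, Plin5 and Cidea, with 18 to 55 UMIs in adipocyte-like nuclei of the WT-labelled library.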
